A study of Mus musculus with 12 samples.

Results

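The genes described here are 31 genes of mitochondrial fatty acid oxidation and of the response to the nuclear receptor PPAR-alpha, measured by mRNA sequencing in whole mouse hearts. They were taken as the rows of the deposited tables whose gene symbol is on that list, and all 31 were found among the 24061 symbols of each table. HKII+/- hearts, heterozygous for the hexokinase II gene (Hk2), were compared with HKII+/+ hearts, which have both copies. Hexokinase II traps glucose in the cell and sits on the outer face of mitochondria. Each genotype had 6 libraries, all from male C57BL/6J mice on chow aged 2 to 4 months. The labels give no tissue-specific promoter or Cre for the allele, and the libraries are of whole heart, so every cell type of the organ contributes. The labels do not say that each library is a separate animal, so the p-values measure the spread between these samples. In such bulk RNA, fewer cells of a type and less RNA per cell cannot be told apart.

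The heart burns mostly fatty acids. They enter through the plasma membrane, are joined to coenzyme A, cross into mitochondria as carnitine esters, and are shortened in a cycle of dehydrogenation, hydration, a second dehydrogenation and thiolysis. Electrons from the first step reach the respiratory chain through the electron transfer flavoproteins. PPAR-alpha is a transcription factor that binds fatty acids and, with its partner RXR, raises transcription of many of these genes.

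Counts summed to 17263209 to 51556592 per library. The submitters' labels mark HKII+/- replicate 11 and HKII+/+ replicate 13 as possible outliers, so results are given with all 12 libraries and with the 10 unmarked ones. Hk2, the targeted gene, averaged 338.3 ± 118 CPM in HKII+/- and 533 ± 64.4 CPM in HKII+/+ controls (SD, n = 6 each). CPM are counts relative to the TMM-scaled library total. The log2 fold change was -0.66 (SE 0.19, edgeR adjusted p = 0.99999). In the 10 unmarked libraries Hk2 averaged 292 ± 40.6 CPM in HKII+/- and 509 ± 29.6 CPM in HKII+/+ controls (SD, n = 5 each), and the log2 fold change was -0.80 (SE 0.09, edgeR adjusted p = 0.0165). That call was lost in 7 of the 10 fits that left out 1 further library, with adjusted p between 0.00106 and 0.0951. Genes of a cardiomyocyte list (Myl2, Myl3, Myh6, Tnni3, Tnnt2, Actc1 and Ryr2) were abundant in all libraries. They summed to 180940 CPM in HKII+/- replicate 11, 203280 CPM in HKII+/+ replicate 13 and 64222 to 88836 CPM in the other 10. Myh6 alone gave 125860 CPM in HKII+/- replicate 11 and 130930 CPM in HKII+/+ replicate 13, and the sum does not separate ventricle from atrium. HKII+/- replicate 11 also had 1433 CPM of adipocyte markers (at most 227 in any other library), 12623 CPM of fibroblast markers, 16301 CPM of atrial markers and 261 CPM of airway markers (at most 1.64 in any other library). Of the atrial markers, Myl7 (797 CPM) and Sln (269.8 CPM) lay there below the 903 and 327 CPM of HKII+/- replicate 20. HKII+/+ replicate 13 had 3934 CPM of fibroblast markers, against at most 1567 CPM in the unmarked libraries.

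Apart from Cpt1b, taken up below, the genes spanned 3.25 to 1447 CPM per kb of exon. Members of 1 role lay apart, as with the uptake genes Fabp3 (1447) and Slc27a1 (40.2) and the cycle enzymes Acaa2 (592) and Echs1 (40.7). The size of these gaps depended on the length used. In the 10 unmarked libraries Fabp3, the muscle fatty acid-binding protein, was highest at 1447 CPM per kb. It was followed by Acadl (593 CPM per kb), Acaa2 (592), Ech1 (553) and Cd36 (524). The lowest were Cpt1b (0.884 CPM per kb), Acot1 (3.25), Angptl4 (3.48), Cpt1a (13.4) and Ucp2 (15.4). With the length of the longest coding transcript in place of all exons, a choice made after seeing the data, the lowest 5 were the same genes, while Acadm (627 CPM per kb) and Etfb (606) joined the highest 5 in place of Acaa2 (592) and Cd36 (554). By that length Echs1 was at 217 CPM per kb and Slc27a1 at 83.9, while Acaa2 (592) and Fabp3 (1447) were unchanged. Acadl, Acaa2 and Ech1 differed by less than the spread between libraries of either genotype, as did Ech1 and Cd36, and Acot1 and Angptl4.

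**Figure D1:**
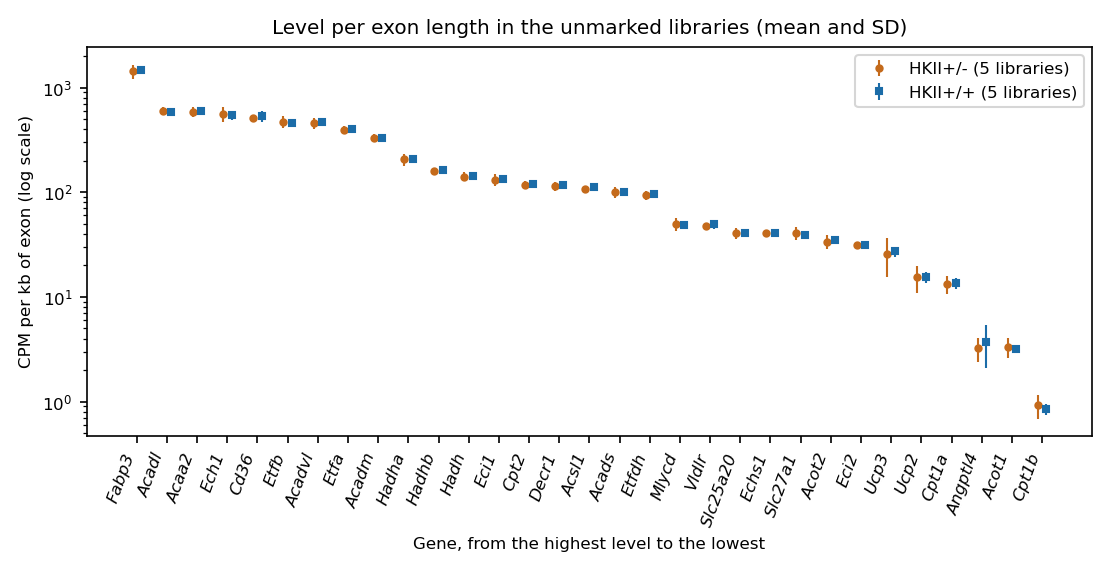
Level of each gene per kb of exon (log axis) in the 5 unmarked HKII+/- libraries (circles) and the 5 unmarked HKII+/+ libraries (squares), as mean and SD. The order runs from Fabp3 at 1447 CPM per kb to Cpt1b at 0.884 CPM per kb, and the genotypes lie on top of each other at nearly every gene.

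The carnitine step had an uneven look in these tables. Cpt1b encodes the muscle form of carnitine palmitoyltransferase 1, the gate of mitochondrial entry, and is known as the main heart form, while Cpt1a encodes the liver form. Cpt1b was counted at 1.92 to 3.85 CPM in the 5 unmarked HKII+/- libraries and at 2.43 to 3.24 CPM in the 5 unmarked HKII+/+ libraries. Cpt1a was counted at 69.9 to 118.7 CPM in the same HKII+/- libraries and at 86.1 to 118.5 CPM in the HKII+/+ libraries. In the GENCODE vM21 annotation (GRCm38), 2744 of the 3372 exon bases of Cpt1b (chromosome 15, 89416405 to 89425863, minus strand) also belong to Gm44502, a gene on the same strand. The tables hold a row for a joined Chkb-Cpt1b gene, which was at 0 counts in all 12 libraries. Chkb, the other partner of that joined gene, was itself counted at only 0 to 0.678 CPM. How reads that fall in more than 1 gene were counted is not given in the sources used here, so the Cpt1b level cannot be read as its expression. Cpt1a and Cpt1b share 66.2% of aligned coding bases, with no identical run longer than 20 bases. The rest of the shuttle was well covered. Cpt2, the inner-membrane transferase, averaged 279.5 ± 25 CPM in HKII+/- and 286.7 ± 17.3 CPM in HKII+/+ controls, and Slc25a20, the carnitine-acylcarnitine carrier, 196.5 ± 24.2 CPM in HKII+/- and 198.5 ± 7.92 CPM in HKII+/+ controls (SD, n = 5 unmarked each). The log2 fold changes with 10 libraries were -0.03 for Cpt1a, -0.04 for Cpt2 and -0.01 for Slc25a20, and with 12 libraries -0.04 (SE 0.28), -0.10 (SE 0.18) and -0.05 (SE 0.11).

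No gene of the set passed the test for a difference between the genotypes. With 12 libraries, 0 of 31 genes passed edgeR's quasi-likelihood test at an adjusted p below 0.05, where 0% of the 14107 genes tested did, and 0 were below an unadjusted 0.05, where 0.262% of all genes were. With the 10 unmarked libraries again 0 of 31 passed, against 0.00707% of the 14139 genes tested (Hk2 alone), and 0 were below an unadjusted 0.05, against 2.80% of all genes. DESeq2 and limma voom with sample quality weights also called 0 of the 31 in both sets of libraries. In CPM, the genotypes overlapped for each of the 31 genes with 12 libraries (0.0213% of all genes did not overlap) and with 10 (0.474%).

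The precision differed greatly between the 2 sets of libraries. The standard error of the log2 fold change had a median of 0.24 over the 31 genes with 12 libraries and 0.08 with 10, against 0.25 and 0.09 over all genes tested. With 12 libraries the 95% interval lay within 1.5-fold in either direction for 14 of the 31 genes (44.5% of all genes). With 10 it did so for 29 of 31 (83.3% of all genes), and the exceptions were Angptl4 and Ucp3. The intervals bound what these samples could show and do not establish that the genotypes were alike.

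**Figure D2:**
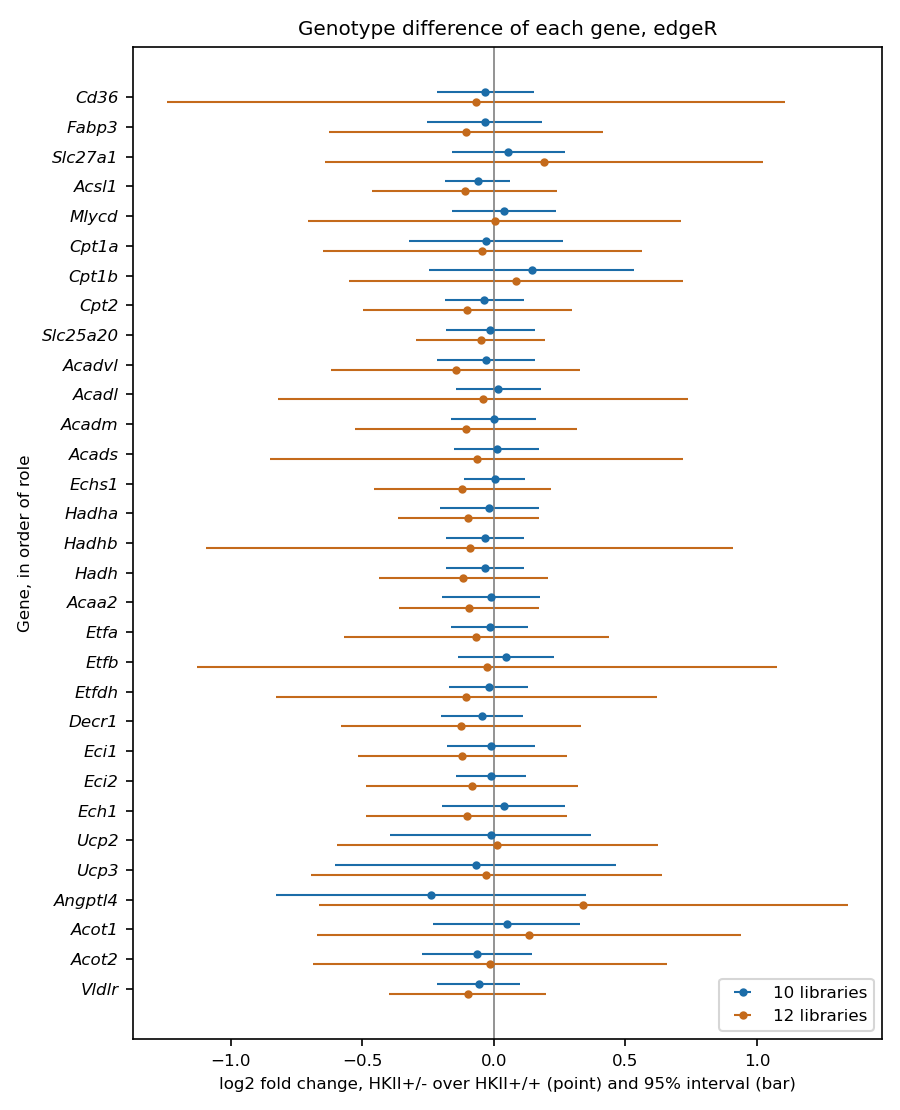
Log2 fold change of HKII+/- over HKII+/+ hearts for each gene (point) with its 95% interval (bar) from edgeR, with the 10 unmarked libraries (blue) and with all 12 (orange). Each interval includes 0, and the orange bars are longest at Cd36, Etfb, Angptl4 and Hadhb, with SEs of 0.54, 0.51, 0.463 and 0.461.

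The sign of the fold changes leaned one way without any gene passing the test. With 12 libraries 25 of 31 genes (80.6%) had a lower fitted value in HKII+/- hearts, against 50.5% of all genes, and the median log2 fold change was -0.08, against -0.001 over all genes. With the 10 unmarked libraries 22 of 31 (71.0%) were lower, against 52.7% of all genes, and the median was -0.02, against -0.005. The size of this lean depended on the libraries and settings used. It was 27 of 31 lower with a median of -0.05 under sample quality weights in both sets, 27 of 31 with the GC trend removed from the 12 libraries, and 27 of 31 when HKII+/- replicate 19 or 22 was left out of the 10. Without HKII+/- replicate 11 alone, 14 of 31 were lower and the median was 0.01. Among the 10 unmarked libraries, leaving out HKII+/- replicate 12 gave 8 of 31 lower with a median of 0.02, and leaving out HKII+/- replicate 16 gave 14 of 31 with a median of 0.01.

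Uptake and activation genes were close to equal in the unmarked hearts. Cd36, the fatty acid translocase, measured 1704, 1824, 1969, 1793 and 2009 CPM in HKII+/- replicates 12, 16, 19, 20 and 22, against 1760, 1706, 1821, 1973 and 2254 CPM in HKII+/+ replicates 14, 15, 17, 18 and 21. The ranges overlapped, with HKII+/+ replicate 21 above every HKII+/- library, and the log2 fold change was -0.03 (SE 0.08) with 10 libraries. Fabp3 averaged 1177 ± 186 CPM in HKII+/- and 1205 ± 80.7 CPM in HKII+/+ controls, and Slc27a1, a fatty acid transport protein with acyl-CoA synthetase activity, 239 ± 35.7 CPM in HKII+/- and 230.0 ± 20 CPM in HKII+/+ controls (SD, n = 5 each). Acsl1, the main heart acyl-CoA synthetase, had the smallest unadjusted p of the set. It measured 1082, 1054, 1174, 1096 and 1224 CPM in HKII+/- hearts, against 1191, 1143, 1210, 1119 and 1219 CPM in HKII+/+ controls, in the same replicate order. Its 3 lowest libraries were HKII+/-, its highest was HKII+/- too, and the log2 fold change was -0.06 (SE 0.06, edgeR unadjusted p = 0.300, adjusted p = 0.99987). Mlycd, which removes the malonyl-CoA that blocks carnitine palmitoyltransferase 1, had a log2 fold change of 0.04 (SE 0.09). With 12 libraries the log2 fold changes were -0.07 (SE 0.54) for Cd36, -0.11 (SE 0.24) for Fabp3, 0.19 (SE 0.38) for Slc27a1, -0.11 (SE 0.16) for Acsl1 and 0.004 (SE 0.33) for Mlycd.

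Acyl-CoA dehydrogenases catalyse the first step of the cycle for chains of different length. Acadvl (very long chains) averaged 1236 ± 156 CPM in HKII+/- and 1261 ± 75.5 CPM in HKII+/+ controls (SD, n = 5 each). Acadl (long), Acadm (medium) and Acads (short) had log2 fold changes of 0.02, -0.0001 and 0.01 with 10 libraries, each with an SE of 0.07. Acadm was the closest to equality of the 31 genes, at 1283 ± 112 CPM in HKII+/- and 1284 ± 90.2 CPM in HKII+/+ controls. With 12 libraries the log2 fold changes were -0.14 (SE 0.22) for Acadvl, -0.04 (SE 0.36) for Acadl, -0.11 (SE 0.19) for Acadm and -0.06 (SE 0.36) for Acads. Of the exons of Acadvl, 1151 bases are shared with Dvl2 on the other strand, and the strand setting of the counting is not given.

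The later steps of the cycle had the same small differences. Echs1, the enoyl-CoA hydratase, averaged 337.4 ± 21.6 CPM in HKII+/- and 337 ± 9.35 CPM in HKII+/+ controls, with the narrowest interval of the set (log2 fold change of 0.003, SE 0.05, 0.92-fold to 1.09-fold). Hadha and Hadhb encode the alpha and beta subunits of the mitochondrial trifunctional protein. Hadha averaged 1798 ± 236 CPM in HKII+/- and 1820 ± 86.3 CPM in HKII+/+ controls, and Hadhb 1059 ± 75.1 CPM in HKII+/- and 1084 ± 74.2 CPM in HKII+/+ controls. Hadh, which oxidises shorter hydroxyacyl-CoA, and Acaa2, the mitochondrial thiolase, had log2 fold changes of -0.03 and -0.01. The electron transfer genes Etfa, Etfb and Etfdh had log2 fold changes of -0.02, 0.05 and -0.02. The auxiliary enzymes that deal with double bonds, Decr1, Eci1, Eci2 and Ech1, lay between -0.05 and 0.04. With 12 libraries Echs1 and Hadh were both at -0.12 (SE 0.16 and 0.15), Hadha at -0.10 (SE 0.12), and Hadhb and Acaa2 both at -0.09 (SE 0.46 and 0.12). Etfa, Etfb and Etfdh were then at -0.07, -0.03 and -0.10 (SE 0.23, 0.51 and 0.33), and the 4 auxiliary enzymes between -0.12 and -0.08.

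Angptl4, Ucp3 and Cpt1b had the widest intervals of the set with 10 libraries. Angptl4, a secreted inhibitor of lipoprotein lipase and a responsive PPAR target, measured 51.5 CPM in HKII+/- replicate 11 and 10.1, 9.61, 16.3, 12.4 and 8.70 CPM in HKII+/- replicates 12, 16, 19, 20 and 22. It measured 19.4 CPM in HKII+/+ replicate 13 and 20.8, 18.2, 10.3, 7.83 and 9.06 CPM in HKII+/+ replicates 14, 15, 17, 18 and 21. HKII+/+ hearts thus fell into a higher trio and a lower trio, and one HKII+/- heart stood above all others. The log2 fold change was 0.34 (SE 0.46) with 12 libraries and -0.24 (SE 0.27) with 10, so its sign turned with the marked libraries (edgeR unadjusted p = 0.477 and 0.393, adjusted p = 0.99999 and 0.99987). The library with 51.5 CPM was the one with high adipocyte markers, and the part of those cells in its value was not tested.

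Acot1 and Acot2 encode the cytosolic and the mitochondrial acyl-CoA thioesterase and lie 15616 bases apart on chromosome 12. Their coding sequences share 85.6% of aligned bases, with an identical run of 273 bases that is longer than the reads of 100 nt, so the split of reads between them is uncertain. Acot1 took 11.6% to 17.3% of the counts of the pair. Acot2 averaged 73.9 ± 11.5 CPM in HKII+/- and 77.4 ± 5.34 CPM in HKII+/+ controls (SD, n = 5 each), and the log2 fold change was -0.07 (SE 0.10, edgeR unadjusted p = 0.509). Acot1 averaged 12.96 ± 2.74 CPM in HKII+/- and 12.5 ± 1.07 CPM in HKII+/+ controls. Vldlr, a receptor for triglyceride-rich lipoproteins, averaged 478.8 ± 31.1 CPM in HKII+/- and 499 ± 45.4 CPM in HKII+/+ controls, for a log2 fold change of -0.06 (SE 0.07, edgeR unadjusted p = 0.436). Cpt1b had a log2 fold change of 0.14 (SE 0.18, edgeR unadjusted p = 0.436), under the limit on its counts given above. With 12 libraries the log2 fold changes were 0.13 (SE 0.37) for Acot1, -0.02 (SE 0.31) for Acot2, -0.10 (SE 0.14) for Vldlr and 0.08 (SE 0.29) for Cpt1b.

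The 2 marked libraries departed from their own genotypes by far more than the fitted differences between genotypes, and mostly in the same direction. The ratio to the median of the other 5 libraries of the genotype ran from 0.0673 (Cd36) to 5.11 (Angptl4) in HKII+/- replicate 11 and from 0.197 (Cd36) to 4.43 (Etfb) in HKII+/+ replicate 13. HKII+/- replicate 11 lay above all 5 other HKII+/- libraries for 10 genes and below them for 19, against 41.5% and 46.5% of all genes. HKII+/+ replicate 13 lay above all 5 other HKII+/+ libraries for 11 genes and below them for 18, against 39.2% and 46.3% of all genes. Most genes of the whole transcriptome thus lay outside the range of the other 5 libraries too. The direction against the median of the other 5 was the same in both marked libraries for 29 of the 31 genes. The share of all genes with the same direction in both was not computed, so this count cannot be read as a trait of the set.

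**Figure D3:**
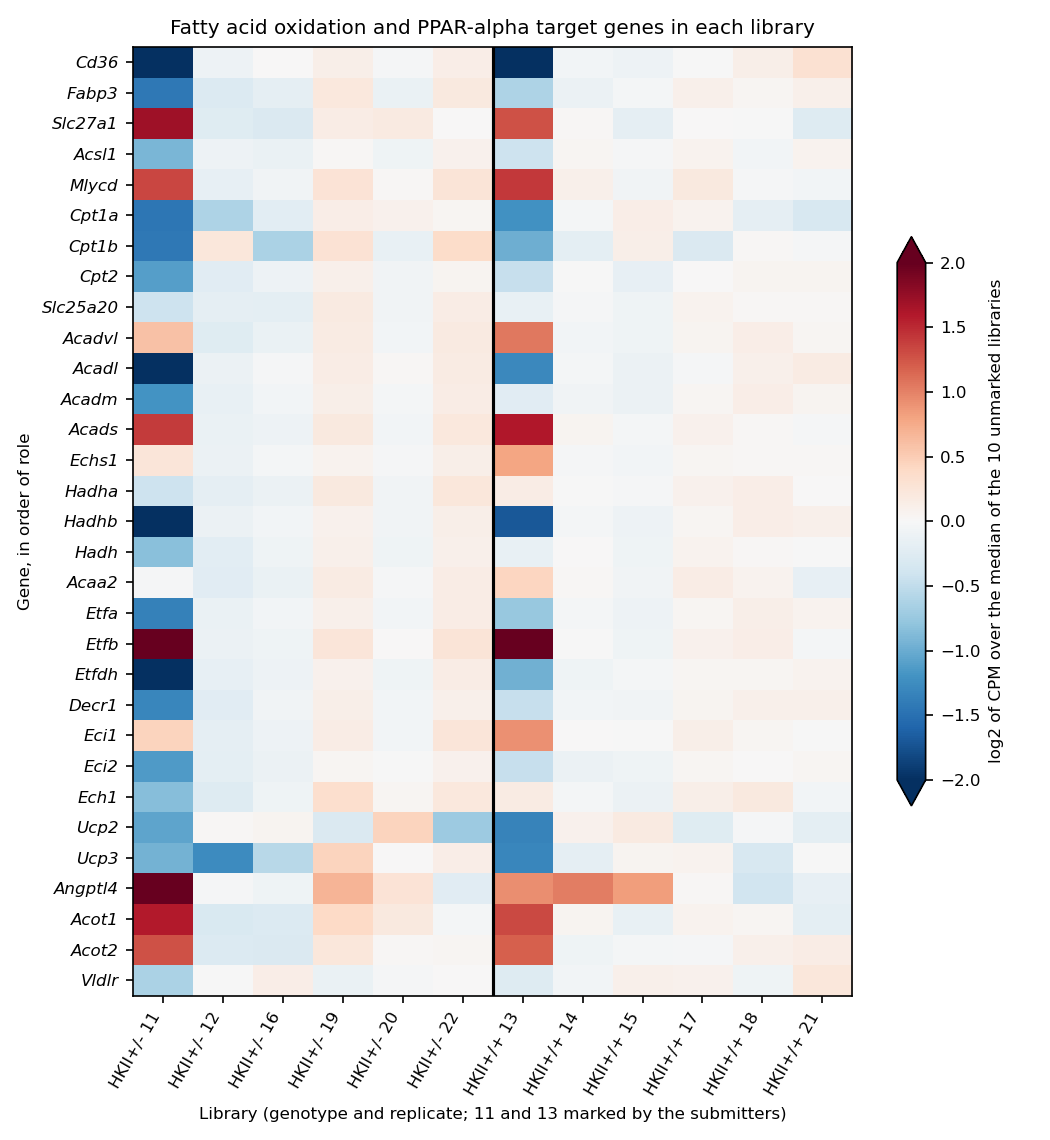
Each gene (row, in order of role) in each library (column, HKII+/- left of HKII+/+) as log2 of its CPM over the median of the 10 unmarked libraries, with colours saturating at 2 in either direction. HKII+/- replicate 11 and HKII+/+ replicate 13 stand out in the same genes, for example low Cd36 and Hadhb and high Etfb, while HKII+/- replicate 12 is slightly low in most rows.

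Genes whose products work as a pair came apart in these 2 libraries. Etfa and Etfb encode the 2 subunits of 1 flavoprotein, and in HKII+/- replicate 11 Etfa measured 282 CPM and Etfb 2137 CPM, against medians of 694 and 528 CPM in the other 5 HKII+/- libraries. In HKII+/+ replicate 13 Etfa measured 427 CPM and Etfb 2311 CPM, against medians of 737 and 522 CPM in the other 5 HKII+/+ libraries. One subunit was thus low and the other high in the same RNA. Of the 1164 exon bases of Etfb, 678 also belong to Gm45233 or Mir7051 on the same strand. Hadha and Hadhb run in opposite directions on chromosome 5, with 85 bases between them. In HKII+/- replicate 11 Hadha was at 0.789 of the median of the other 5 HKII+/- libraries and Hadhb at 0.100. In HKII+/+ replicate 13 Hadha was at 1.09 of its genotype's median and Hadhb at 0.301. Cd36 had the lowest ratio of the set in both libraries, with 123 CPM and a ratio of 0.0673 in HKII+/- replicate 11 and 359.6 CPM and a ratio of 0.197 in HKII+/+ replicate 13.

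The departures ran with the base composition of the transcripts. GC content of the longest coding transcript ranged from 38.4% in Cd36 to 61.0% in Mlycd. All 9 genes under 50% GC were below each of the other 5 libraries of their genotype in both marked libraries (Cd36, Vldlr, Decr1, Etfa, Acadl, Hadhb, Etfdh, Acadm and Acsl1). Of the 22 genes at 50% or more, 11 were above the median of their genotype in HKII+/- replicate 11 and 13 were in HKII+/+ replicate 13. Their median log2 ratio was -0.17 in HKII+/- replicate 11 and 0.29 in HKII+/+ replicate 13, against 0.54 and 0.40 for all genes at 50% or more. For the 9 genes under 50% it was -1.30 and -0.79, against -0.86 and -0.70 for all genes under 50%. The 4 genes with the highest GC were above all 5 others in both marked libraries. Mlycd (61.0% GC) was at 2.49 and 2.70 times the median in replicates 11 and 13, Acads (60.1%) at 2.74 and 2.98, Slc27a1 (59.1%) at 3.23 and 2.42, and Etfb (57.1%) at 4.05 and 4.43. Over the 31 genes, Pearson's r of the log2 ratio with GC was 0.72 for HKII+/- replicate 11 and 0.70 for HKII+/+ replicate 13, and Spearman's rho 0.54 and 0.57. Over 13472 genes r was 0.63 and 0.65, so the trend was one of the whole libraries. These are descriptions across genes, whose points share a library and are not independent. RNA quality of the libraries was not analysed here, and the part of base composition, other cell types or RNA quality in the departures was not tested.

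**Figure D4:**
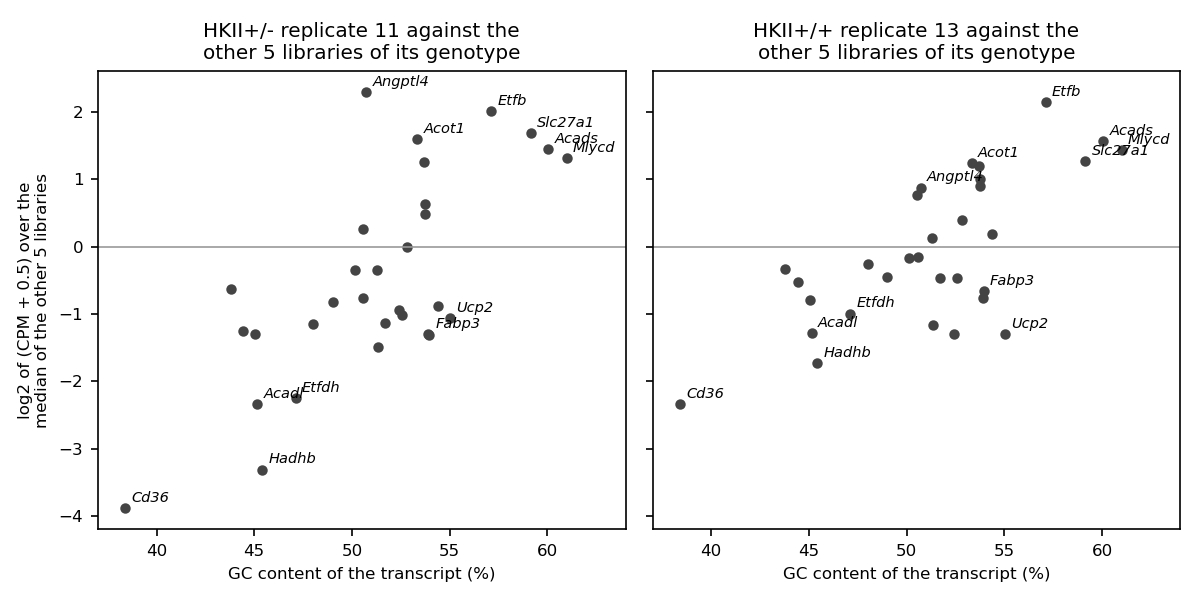
Log2 of CPM (plus 0.5) of each gene in HKII+/- replicate 11 (left) and HKII+/+ replicate 13 (right) over the median of the other 5 libraries of the same genotype, against the GC content of its transcript in percent. Points run upward to the right, from Cd36 at 38.4% GC to Etfb, Slc27a1, Acads and Mlycd above 57% GC, with Angptl4 high at 50.7% GC and Ucp2 low at 55.0% GC.

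The contrast in composition can be read in the coding sequences. Stretches of 120 coding bases are shown for the 2 genes with the lowest ratios, Cd36 and Hadhb. Acads and Etfb, the 2 with the highest ratios in HKII+/+ replicate 13, are shown beside them. In HKII+/- replicate 11, Angptl4 (5.11, 50.7% GC), Slc27a1 (3.23, 59.1%) and Acot1 (3.10, 53.3%) lay above Acads (2.74) and are not shown. Each stretch was chosen as a window with the GC share of its whole coding sequence, so the contrast shown follows from the choice of genes. Capitals mark G and C, and the transcripts are those of GENCODE vM21 on GRCm38.
Cd36 (chromosome 5, 17781690 to 17888801, minus strand, coding bases 84 to 203): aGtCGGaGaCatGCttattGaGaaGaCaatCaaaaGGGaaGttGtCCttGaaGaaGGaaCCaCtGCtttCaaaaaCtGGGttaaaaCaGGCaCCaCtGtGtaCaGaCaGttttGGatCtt
Hadhb (chromosome 5, 30155248 to 30184593, plus strand, coding bases 53 to 172): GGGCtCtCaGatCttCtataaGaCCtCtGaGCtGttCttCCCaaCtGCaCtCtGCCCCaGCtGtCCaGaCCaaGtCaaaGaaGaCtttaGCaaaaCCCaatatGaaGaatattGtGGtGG
Acads (chromosome 5, 115110299 to 115119346, minus strand, coding bases 24 to 143): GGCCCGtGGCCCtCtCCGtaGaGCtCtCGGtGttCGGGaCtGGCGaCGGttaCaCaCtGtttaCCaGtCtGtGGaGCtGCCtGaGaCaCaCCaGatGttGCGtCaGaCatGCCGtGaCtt
Etfb (chromosome 7, 43444083 to 43457800, plus strand, coding bases 5 to 124): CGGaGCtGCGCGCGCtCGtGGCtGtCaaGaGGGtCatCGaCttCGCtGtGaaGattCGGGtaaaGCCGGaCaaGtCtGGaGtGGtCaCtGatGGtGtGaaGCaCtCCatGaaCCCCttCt
G and C make up 41.7% and 46.7% of the bases shown for Cd36 and Hadhb, and 59.2% and 57.5% of those shown for Acads and Etfb.

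Among the 10 unmarked libraries most of these genes were steady and a few were not. The SD of log2 CPM had a median of 0.127 over the 31 genes, against 0.136 over all genes tested, and 19 of the 31 were below that. The most variable were Angptl4 (SD 0.469, at percentile 96.9 of all genes), Ucp3 (0.467, percentile 96.8), Ucp2 (0.314), Cpt1b (0.255) and Cpt1a (0.245). The steadiest were Echs1 (0.0671) and Acsl1 (0.0774).

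Ucp3, an uncoupling protein that follows fatty acid supply in muscle, varied mostly within HKII+/- hearts. It measured 37.3, 60.5, 121, 89.5 and 98.2 CPM in HKII+/- replicates 12, 16, 19, 20 and 22, against 78.6, 93.0, 93.9, 71.6 and 88.8 CPM in HKII+/+ replicates 14, 15, 17, 18 and 21. The HKII+/+ range lay inside the HKII+/- range, and the log2 fold change was -0.07 (SE 0.24, edgeR unadjusted p = 0.780) with 10 libraries and -0.03 (SE 0.31) with 12. Ucp2, its broadly expressed neighbour on chromosome 7, measured 112.7, 115, 90.3, 151 and 67.3 CPM in those HKII+/- libraries, against 117, 125, 93.2, 109 and 96.9 CPM in the HKII+/+ libraries. HKII+/- replicate 19 was highest for Ucp3 and lower than all but replicate 22 for Ucp2, so the neighbours did not vary together there. Cpt1a was again lowest in HKII+/- replicate 12 (69.9 CPM) and highest in HKII+/- replicate 19 (118.7 CPM). The variance of the groups was not compared by a test.

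**Figure D5:**
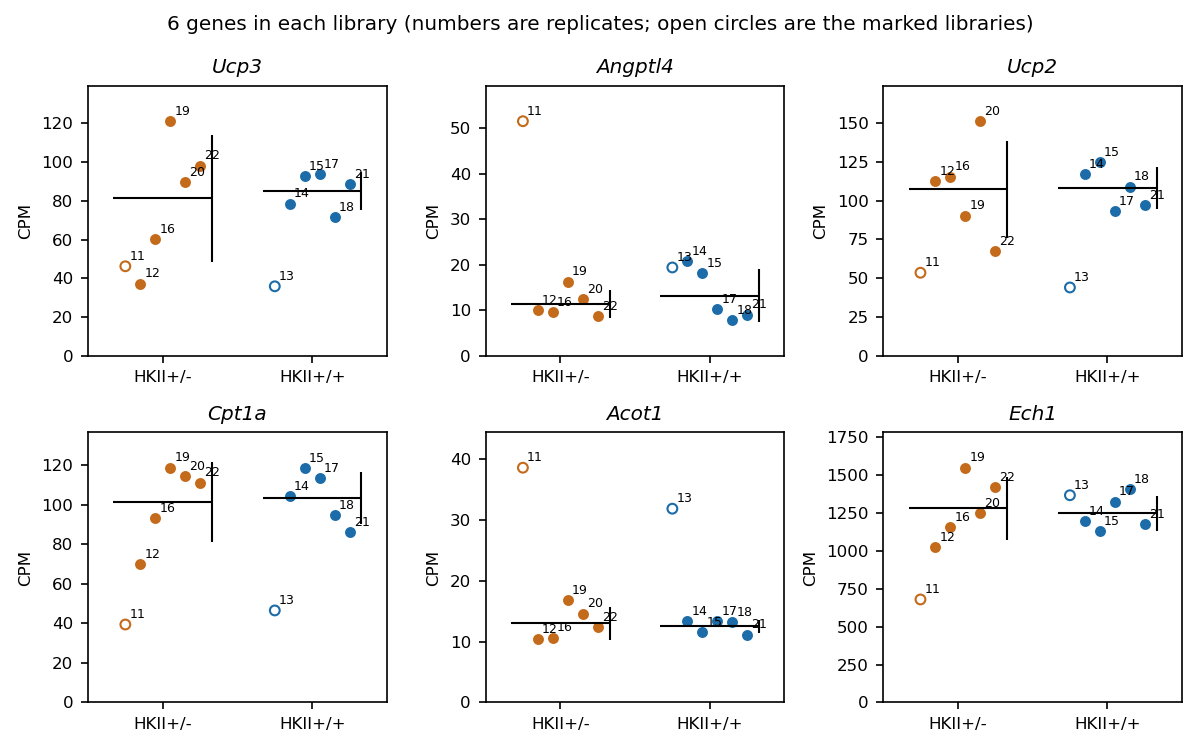
CPM of 6 genes in each library, HKII+/- left of HKII+/+ in each panel, with the replicate number beside each point, open circles for the marked libraries, and the mean (horizontal line) and SD (vertical line) of the 5 unmarked libraries. HKII+/- replicates 12 and 16 are the lowest unmarked HKII+/- libraries for Ucp3, Cpt1a, Acot1 and Ech1, where HKII+/- replicate 19 is the highest of the unmarked libraries.

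Most of the 31 genes, steady and variable ones together, shared a pattern between HKII+/- libraries. HKII+/- replicate 12 was the lowest of the 10 unmarked libraries for 23 of the 31 genes, against 15.8% of all genes, and no gene of the set was highest there. HKII+/- replicate 22 was highest for 14 genes (14.5% of all genes) and HKII+/- replicate 19 for 11 (9.82%). Replicates 19 and 22 were the top pair of the 5 unmarked HKII+/- libraries for 25 of the 31 genes, against 21.7% of all genes. The shifts were small, with a median log2 distance from the 10-library median of -0.18 in replicate 12, 0.15 in replicate 19 and 0.14 in replicate 22. These libraries were singled out after their values were seen.

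Several cell type marker sums split the same HKII+/- libraries. Atrial markers, all 5 detected, summed to 316 CPM in HKII+/- replicate 19 and 433 CPM in replicate 22, against 5691, 5482 and 6835 CPM in HKII+/- replicates 12, 16 and 20, and 2361 to 5916 CPM in unmarked HKII+/+ libraries. The cardiomyocyte list summed to 81658 and 88836 CPM in HKII+/- replicates 19 and 22, against 64222, 64377 and 74133 CPM in HKII+/- replicates 12, 16 and 20. Myh6 alone gave 43704 and 48159 CPM of the sums in replicates 19 and 22, so the list is no measure of ventricle against atrium. Adipocyte markers summed to 51.8 and 40.2 CPM in replicates 19 and 22 and to 199, 147 and 118 CPM in replicates 12, 16 and 20. The part of the chambers or cell types sampled in the values of the 31 genes was not tested. With the atrial markers as a covariate in the 10-library fit, 0 of 31 genes were called. Of the 31, 28 were lower in HKII+/- hearts, against 51.5% of all genes, and the median log2 fold change was -0.08, against -0.004. Below an unadjusted 0.05 were 4 (Hadha, Fabp3, Acsl1 and Acadvl, lowest edgeR adjusted p = 0.894), against 4.86% of all genes. Replicates 19 and 22 were the top pair of the unmarked HKII+/- libraries for 25 of the 31 genes, so leaving them out lowers the HKII+/- values by itself. The fit without them is therefore a description and cannot be read as a genotype difference. Without replicates 19 and 22, a choice made after seeing the data that left 3 HKII+/- libraries, 30 of 31 were lower, against 51.0% of all genes. The median was then -0.12, against -0.003 over all genes, and 9 were below an unadjusted 0.05 (lowest edgeR adjusted p = 0.706), against 7.02% of all genes. The largest of the 9 was Fabp3 at -0.21 (SE 0.07), and the others were Hadha, Eci1, Slc25a20, Acsl1, Acadvl, Hadh, Acads and Acot2.

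The rest of the pathway was likewise without calls. Of 26 other mitochondrial fatty acid oxidation and lipid handling genes tested, 0 passed in either direction, 19 had a lower fitted value with 12 libraries and 14 with 10. Lpl, which frees fatty acids from lipoproteins, averaged 5548 ± 515 CPM in HKII+/- and 5761 ± 747 CPM in HKII+/+ controls (SD, n = 5 unmarked each), and Fabp4, a fatty acid-binding protein of endothelium and fat, 407 ± 37.2 CPM in HKII+/- and 421 ± 41.9 CPM in HKII+/+ controls. Acsl5, an acyl-CoA synthetase, and Fabp5 had the smallest unadjusted p of that list with 12 libraries, where their log2 fold changes were 0.15 (SE 0.12) for the one and -0.14 (SE 0.13) for the other. With 10 libraries they were 0.07 (SE 0.06) for Acsl5 and -0.01 (SE 0.07) for Fabp5. Of 19 peroxisomal genes 0 passed, and 10 were lower with 12 libraries and 16 with 10. Acot3, a peroxisomal thioesterase, was near the floor, with 17 to 51 counts per library. It averaged 0.882 ± 0.148 CPM in HKII+/- and 1.18 ± 0.245 CPM in HKII+/+ controls (SD, n = 5 unmarked each). Its log2 fold change was -0.46 (SE 0.19, edgeR unadjusted p = 0.0326, adjusted p = 0.99987) with 10 libraries and -0.48 (SE 0.24, edgeR unadjusted p = 0.0734) with 12. Of the 19, only Acot3 was below an unadjusted 0.05 with 10 libraries, where 2.80% of all genes were. Acaa1b, a peroxisomal thiolase, was counted at 8.80 CPM in HKII+/- replicate 11 and at most 1.19 CPM in any other library. Its log2 fold change was 2.16 (SE 1.148, edgeR unadjusted p = 0.0833) with 12 libraries and -0.26 (SE 0.77) with 10.

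Of 17 further PPAR-alpha target genes 12 were tested and 0 passed, with 5 lower with 12 libraries and 8 with 10. With 10 libraries 1 of the 12 was below an unadjusted 0.05 (edgeR unadjusted p = 0.0349), where 2.80% of all genes were. Pdk4, the kinase that shuts pyruvate dehydrogenase, measured 496, 628, 1029, 971 and 862 CPM in HKII+/- replicates 12, 16, 19, 20 and 22, against 649, 1087, 714, 657 and 1123 CPM in HKII+/+ replicates 14, 15, 17, 18 and 21. HKII+/- replicate 12 was again the lowest, and the log2 fold change was -0.09 (SE 0.22). Hsdl2, of the same list, had a log2 fold change of -0.09 (SE 0.07). Of 18 regulators 0 passed, with 9 lower with 12 libraries and 8 with 10. Ppara, which encodes PPAR-alpha, averaged 159 ± 19.1 CPM in HKII+/- and 145 ± 13.2 CPM in HKII+/+ controls, for a log2 fold change of 0.13 (SE 0.09, edgeR unadjusted p = 0.164). Ppargc1a, its coactivator, averaged 218 ± 46.7 CPM in HKII+/- and 225 ± 76.3 CPM in HKII+/+ controls. Klf5 and Pparg, with the smallest unadjusted p of that list with 12 libraries, gave 1.05 (SE 0.70) and 0.16 (SE 0.16) as log2 fold changes there, and -0.17 (SE 0.33) and 0.06 (SE 0.14) with 10.

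PPAR-alpha and RXR bind a direct repeat of AGGTCA with 1 base between the copies, and RefSeq promoter windows on GRCm38.p6 (250 bases before to 50 after the start) were found for 27 of the 31 genes, as 31 windows. Searched on both strands with at most 2 mismatches to the 12 fixed bases, the repeat was in 5 of the 31 windows (16.1%), against 3.86% of 32851 windows of the same length. With at most 1 mismatch it was in 0 of 31 (0.554% of all windows), and with at most 3 in 10 (32.3%, against 24.6%). The estrogen-related receptor motif TNAAGGTCA, whose last 6 letters are one copy of the repeat, was in 0 of 31 (1.28% of all windows). The 5 matches are shown because they are the nearest to the repeat in the set, each with 20 bases on either side on the strand that carries the repeat, with capitals where a base equals the repeat.
Cd36 (chr5:17835927-17835979): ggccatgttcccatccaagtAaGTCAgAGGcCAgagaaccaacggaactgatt
Ucp3 (chr7:100472920-100472972): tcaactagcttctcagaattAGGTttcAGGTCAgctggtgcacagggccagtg
Echs1 (chr7:140116472-140116524): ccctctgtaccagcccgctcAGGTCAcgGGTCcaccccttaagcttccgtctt
Etfa (chr9:55512288-55512340): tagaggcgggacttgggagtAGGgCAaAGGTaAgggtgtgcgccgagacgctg
Slc25a20 (chr9:108662122-108662174): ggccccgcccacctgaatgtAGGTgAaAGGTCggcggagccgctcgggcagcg
The first base of the match, in the direction of the gene, lies 63 bases before the start site for Cd36, 51 for Ucp3, 83 for Echs1 and 77 for Etfa, and 6 bases after it for Slc25a20. Cd36 and Etfa carry it on the strand opposite to the gene. A match is a description of letters, and PPAR-alpha binding was not measured in these hearts. The 5 genes did not stand together in the data. In the 10 unmarked libraries Ucp3 was among the most variable (SD of log2 CPM 0.467) and Echs1 was the steadiest (0.0671), with Cd36 at 0.127, Slc25a20 at 0.124 and Etfa at 0.0963.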

How the data were processed

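Heart mRNA, in 6 HKII+/- and 6 HKII+/+ libraries, was selected with poly(A) capture and sequenced as single-end reads of 100 nt, per the labels. STAR 2.4.0, featureCounts 1.4.4 and the builds mm10 and GRCm38 are named, per the submitters' processing notes. For the annotation release and strand setting, neither is given in the sources used here. The authors deposited whole-number counts per gene symbol for each library, with no normalisation. Genotypes came from the sample titles.

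Counts were tested with edgeR 4.0.16 (R 4.3.3, glmQLFTest, TMM, filterByExpr with a minimum count of 10, Benjamini-Hochberg adjustment at 0.05 over all genes), over all 12 libraries and again over the 10 unmarked ones. The script was tested on simulated data. Levels in CPM use TMM factors of the 12 libraries. Alternatives used DESeq2 1.42.0 and limma 3.58.1 and the settings in the closing section. Marker sums, ratios to the median and promoter matches were computed as descriptions, and log2 ratios add 0.5 CPM. Lengths, overlaps and GC content came from GENCODE vM21, and 95.5% of tested genes had a GC value. Genes given in full were those with the 5 smallest unadjusted p with 10 libraries, the 5 largest SDs and the 5 highest and lowest levels per length, plus the 2 smallest p in each of 4 further lists and a fixed set of pathway genes, of which 2 are not reported here. The pairs Etfa and Etfb, and Hadha and Hadhb, were singled out after their values were seen. The members, lists and marked-library comparison were chosen with earlier results of these data known.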

Additional observations from a re-analysis of the deposited data

Results flagged for a closer look

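Within a genotype, 35 values of the 31 genes stood apart from the other 5 libraries by a gap that exceeded Dixon's 95% critical value of 0.625 of the group's whole range for 6 samples. Chance flags about 1 in 20 groups, and these values share 2 libraries and are not independent. All 35 belong to the libraries that the submitters marked, 17 to HKII+/- replicate 11 and 18 to HKII+/+ replicate 13, and 0 to any other library. The share of all genes flagged in this way was not computed. These counts and the genes listed below therefore cannot be read as a trait of the set.

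HKII+/- replicate 11 was the lowest of its genotype, in CPM, for Cd36 (122.8), Acsl1 (617.2), Cpt2 (134.7), Acadl (231.1), Acadm (557.5), Hadhb (102.2), Etfa (281.7), Etfdh (141.5), Decr1 (181.6) and Eci2 (80.05). It was the highest for Slc27a1 (786.2), Mlycd (355.9), Acads (591.9), Etfb (2137), Angptl4 (51.51), Acot1 (38.53) and Acot2 (184.8).

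HKII+/+ replicate 13 was the lowest of its genotype, in CPM, for Cd36 (359.6), Fabp3 (775.2), Acsl1 (868), Acadl (473.6), Hadhb (329.2), Etfa (426.8), Etfdh (365.8), Decr1 (325.8) and Eci2 (127.8). It was the highest for Slc27a1 (586.4), Mlycd (372), Acadvl (2580), Acads (679.8), Echs1 (583.7), Etfb (2311), Eci1 (521.1), Acot1 (31.8) and Acot2 (173.6).

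Cd36, Acsl1, Acadl, Hadhb, Etfa, Etfdh, Decr1 and Eci2 stood apart as the lowest in both marked hearts, and Slc27a1, Mlycd, Acads, Etfb, Acot1 and Acot2 as the highest in both. The same libraries had high sums of the cardiomyocyte list and of fibroblast markers, given above, and the part of these in the values was not tested.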

How the results depend on the processing

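The absence of calls among the 31 genes held under every setting run: relative log expression and upper-quartile factors, no filter on low counts, DESeq2, limma voom with quality weights, an atrial covariate, removal of the GC trend and leaving out each library in turn, with 0 called in each. So did the absence of calls in the 4 further lists. The count over all genes with 12 libraries was 2 with quality weights and 1 without both marked libraries, and with 10 libraries it was 3 with DESeq2 and 0 to 2 leaving out 1 further library. The log2 fold change of Hk2 was -0.88 with quality weights (limma adjusted p = 7.66e-05), -0.80 without both marked libraries, -0.87 to -0.57 leaving out 1 of 12 libraries and -0.88 to -0.75 leaving out 1 of the 10. No paired analysis was possible because the replicate numbers of the labels do not recur between the genotypes.

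The lean towards lower values was the least stable result. Leaving out 1 of 12 libraries gave 14 to 26 lower genes and a median log2 fold change of -0.133 to 0.00974, and leaving out 1 of the 10 gave 8 to 27 and -0.0596 to 0.0228. With 10 libraries the median was -0.0837 with the atrial covariate and -0.118 without HKII+/- replicates 19 and 22, where 30 genes were lower and Hk2 was at -0.94. Direct repeats were in 0 member windows with at most 1 mismatch and in 10 with at most 3.

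Signs of single genes were not stable. Leaving out 1 of 12 libraries, the lowest and highest log2 fold changes were, for Cd36, -0.269 to 0.182, for Fabp3 -0.199 to 0.0568, for Slc27a1 -0.283 to 0.542, for Acsl1 -0.165 to 0.00409, for Mlycd -0.306 to 0.361, for Cpt1a -0.172 to 0.115, for Cpt1b -0.033 to 0.248, for Cpt2 -0.165 to 0.0314, for Slc25a20 -0.107 to 0.00974, for Acadvl -0.265 to 0.103, for Acadl -0.183 to 0.173, for Acadm -0.170 to 0.0384, for Acads -0.409 to 0.368, for Echs1 -0.167 to 0.0602, for Hadhb -0.261 to 0.149, for Etfa -0.160 to 0.0912, for Etfb -0.602 to 0.636, for Etfdh -0.218 to 0.106, for Decr1 -0.191 to 0.0272, for Eci1 -0.202 to 0.0835, for Eci2 -0.136 to 0.0554, for Ech1 -0.197 to 0.0148, for Ucp2 -0.151 to 0.142, for Ucp3 -0.215 to 0.111, for Angptl4 -0.328 to 0.502, for Acot1 -0.278 to 0.483 and for Acot2 -0.342 to 0.275. Hadha, Hadh, Acaa2 and Vldlr kept their sign in these fits. Among the other settings with 12 libraries, the sign turned for Mlycd without the filter (-0.01007), with quality weights (-0.03393) and with the GC trend removed (-0.0604). It also turned with quality weights for Acadl (0.02048), Angptl4 (-0.2714) and Acot1 (-0.003485), with the atrial covariate for Cpt1b (-0.08696), Etfb (0.04979) and Acot2 (0.02445), and with the GC trend removed for Ucp2 (-0.001718). Without both marked libraries it turned for Acadl (0.01723), Acads (0.01118), Echs1 (0.002606), Etfb (0.04701), Ech1 (0.03771), Ucp2 (-0.01167) and Angptl4 (-0.2397).

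Mean CPM and spreads of the 31 genes under 3 other scalings gave 279 values, and all 279 moved by less than the spread. Level per length moved by more than the spread for 24 genes when the longest coding transcript set the length. The GC correction, the fit without HKII+/- replicates 19 and 22 and the second length were chosen after seeing the data. Cpt1b had the lowest counts, at 1.11 to 3.85 CPM, and the part of the overlap with Gm44502 in that level was not tested.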
